A study of Mus musculus with 2 samples.

Results

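Myocardin (*Myocd*), its relatives *Mrtfa* and *Mrtfb*, the DNA-binding partner *Srf*, the Krüppel-like factors *Klf4* and *Klf5*, the Hippo pathway effectors *Tead1*, *Yap1* and *Wwtr1* (which encodes TAZ) and the mesenchymal factor *Tcf21* are regulators of smooth muscle phenotype. They were followed through the cell types of the abdominal aorta in a single-cell RNA sequencing study of an aneurysm model. The genes were taken by symbol from the gene annotation of both matrices, and all 10 were found among 33696 genes. Male C57BL/6J mice aged 5 months gave whole abdominal aortas, which were dissociated with enzymes on day 28. The Control group received saline, and the AngII+HS group received angiotensin II from minipumps for 28 days with drinking water holding 0.9% NaCl and 0.2% KCl. The study design speaks of tissue pooled from 5 mice, whereas the dissociation protocol names 1 Control mouse and 2 AngII+HS mice. The labels name no engineered allele for either group, and each condition is a single library.

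Smooth muscle cells of the aortic media keep their contractile proteins through serum response factor, the product of *Srf*, which binds a short DNA element called the CArG box. Myocardin binds this factor and drives contractile genes, and the actin-regulated coactivators MRTF-A and MRTF-B (from *Mrtfa* and *Mrtfb*) share many of its targets, while ternary complex factors such as ELK1 direct the same DNA-bound protein to immediate early genes. KLF4 and KLF5 are known as antagonists of the contractile state, YAP and TAZ act through TEAD proteins on genes of growth and matrix, and TCF21 is known from adventitial fibroblasts and from smooth muscle cells that have left the contractile state.

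Promoter windows were read from RefSeq (GRCm38.p6) to show the DNA elements these regulators act through. Of the members, 7 of 10 had at least 1 window, and *Myocd*, *Klf5* and *Tead1* had none. Each window spans 250 bases before and 50 bases after an annotated start, and the 250 bases before the start are printed here with position -1 next to the start. The CArG box was searched as an exact pattern of 10 letters: CC, then A or T only, then GG. The pattern, though not each single box, is the same on both strands, and boxes with a mismatch were not counted. The *Srf* window held 2 CArG boxes, at positions -82 and -62. It is shown beside *Egr2*, an immediate early gene, and *Myl9*, a contractile gene that encodes a myosin light chain, since both of these gene groups are targets of serum response factor. In the smooth muscle cells described below, the median log2 ratio of AngII+HS over Control was -0.99 for immediate early and 0.21 for contractile genes. Over all genes tested it was -0.01. *Egr2* itself differed least among the immediate early genes. Capitals mark the CArG boxes.
Srf, chr17:46556163-46556412, minus strand: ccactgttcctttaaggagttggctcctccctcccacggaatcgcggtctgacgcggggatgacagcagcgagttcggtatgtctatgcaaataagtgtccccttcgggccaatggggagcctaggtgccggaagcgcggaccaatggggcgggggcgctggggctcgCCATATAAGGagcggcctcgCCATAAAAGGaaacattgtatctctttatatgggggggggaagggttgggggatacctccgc
Egr2, chr10:67537316-67537565, plus strand: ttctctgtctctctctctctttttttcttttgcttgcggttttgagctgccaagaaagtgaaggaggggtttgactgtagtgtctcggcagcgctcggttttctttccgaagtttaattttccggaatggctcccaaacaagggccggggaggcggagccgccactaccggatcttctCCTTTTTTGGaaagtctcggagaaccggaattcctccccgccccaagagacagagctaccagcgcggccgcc
Myl9, chr2:156775214-156775463, plus strand: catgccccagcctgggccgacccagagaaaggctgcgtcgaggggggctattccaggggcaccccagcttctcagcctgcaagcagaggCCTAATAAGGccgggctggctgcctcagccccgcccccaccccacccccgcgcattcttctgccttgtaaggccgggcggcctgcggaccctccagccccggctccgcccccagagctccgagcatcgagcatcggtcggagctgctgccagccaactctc

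The motif bound by TEAD proteins, the MCAT element, was searched as CATTCC and as GGAATG, its form on the other strand. Among the members, it stood in windows of *Yap1*, *Wwtr1* and *Mrtfb*. Of these, *Yap1* and *Wwtr1* are shown because *Wwtr1* was lower in smooth muscle and higher in endothelium of the AngII+HS library, as given below. Capitals mark the MCAT element in these windows. The *Egr2* window printed above also holds one, at position -127, left in lower case there. The MCAT element did not overlap a CArG box in any printed window.
Yap1, chr9:8004597-8004846, minus strand: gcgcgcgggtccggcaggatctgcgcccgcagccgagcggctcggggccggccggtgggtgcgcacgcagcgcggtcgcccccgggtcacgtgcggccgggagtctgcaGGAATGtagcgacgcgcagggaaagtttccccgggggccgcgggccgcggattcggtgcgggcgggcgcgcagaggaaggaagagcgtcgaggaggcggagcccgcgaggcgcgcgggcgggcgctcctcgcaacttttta
Wwtr1, chr3:57575911-57576160, minus strand: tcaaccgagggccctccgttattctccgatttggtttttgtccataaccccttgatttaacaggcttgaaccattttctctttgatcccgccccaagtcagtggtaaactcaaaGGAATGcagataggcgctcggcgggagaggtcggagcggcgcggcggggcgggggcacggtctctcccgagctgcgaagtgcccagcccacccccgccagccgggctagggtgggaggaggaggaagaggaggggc

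Among all 32851 windows, 535 (1.63%) held a CArG box and 4817 (14.7%) an MCAT element. In the 11 windows of the members, 1 held a CArG box and 4, from 3 genes, an MCAT element. A CArG box stood in windows of 2 of 12 immediate early genes (*Egr2* and *Zfp36*) and of 2 of 18 contractile genes (*Myl9* and *Vcl*). These matches are descriptions of letters in a short window, and several *Egr2* windows overlap. The *Wwtr1* windows overlap as well and hold the same MCAT element.

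The counts are UMIs, unique molecular identifiers that count captured RNA molecules. The Control library had 86618995 UMIs over 11448 barcodes, the AngII+HS library 117146856 UMIs over 24804 barcodes, of which 10269 and 19734 cells passed the filters on quality and doublets. Levels are given as CPM, a gene's UMIs summed over the cells of a type and scaled to 1000000 UMIs of those cells. Intervals are 95% intervals for counting error only (exact Poisson for levels, exact conditional binomial for log2 ratios, Clopper-Pearson for shares of cells). Each condition being a single library, differences could not be tested and none has a replicate check. Each matrix was assigned to the condition of its own sample record, although the 2 barcode lists are exchanged between the samples and share 67 barcode sequences. An exchange of the matrices as well would turn every direction. Vascular smooth muscle cells (VSMCs) made up 50.9% of all Control and 4.13% of all AngII+HS cells, and neutrophils 0.964% and 23.6%.

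The VSMCs numbered 5224 in the Control and 815 in the AngII+HS library, with medians of 9876 and 7806 UMIs per cell. All 10 VSMC markers (*Myh11*, *Acta2*, *Tagln* and 7 others) were detected, with summed levels of 32157 and 40888 CPM against 990.04 and 915 CPM in the T and B cells of the same libraries. T and B cells serve throughout as a measure of free RNA, the RNA from burst cells that enters every droplet. For a gene that these lymphocytes express themselves, the comparison says nothing about free RNA.

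In VSMCs, the coactivator *Myocd* and the repressor *Klf4* were both lower in the AngII+HS library, while the counting intervals of *Srf*, *Mrtfa* and *Mrtfb* held 0. *Yap1* and *Wwtr1* were lower by a smaller amount and *Tead1* was slightly higher. A log2 ratio beyond 0.5 in either direction, the fold threshold of the study, was taken as a call. The study also required an adjusted p-value and a minimum share of expressing cells, which were not applied here. By the threshold alone, 4 of the 10 members were lower (*Myocd*, *Klf4*, *Klf5* and *Yap1*) and 1 was higher (*Tcf21*), beside 20.7% lower and 16.8% higher among all 15720 genes with at least 20 UMIs in VSMCs. *Yap1* lay at the threshold (-0.503) and stayed beyond it under 8 of 15 alternative settings, and *Tcf21*, with few UMIs, under 14 of 15. The median log2 ratio was -0.20 over the members and -0.01 over all genes tested.

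**Figure D1:**
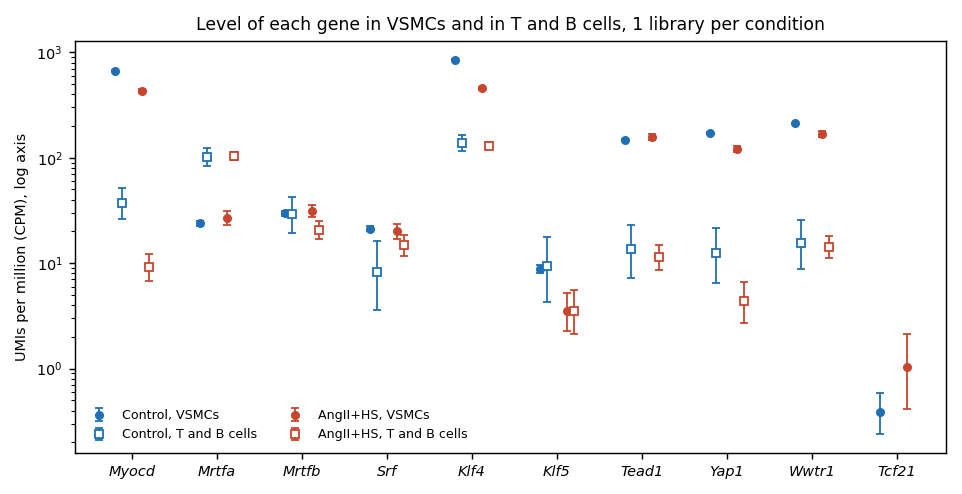
Level of each gene in CPM (log axis) in VSMCs (filled circles) and in T and B cells (open squares), with 1 library per condition and 95% Poisson intervals for counting error. *Myocd* and *Klf4* stood at 671 and 847 CPM in Control VSMCs and at 429 and 456 CPM in AngII+HS VSMCs, while *Klf5* lay at the level of the T and B cells in both libraries, and *Tcf21* had no UMI in T and B cells.

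*Myocd* (chr11:65067387-65160828, minus strand, GRCm39) stood at 671 CPM in Control VSMCs (664 to 678, 36399 UMIs) and at 429 CPM in AngII+HS VSMCs (2913 UMIs). The log2 ratio was -0.65 (-0.70 to -0.59). A *Myocd* UMI was present in 94.9% of Control VSMCs and 81.3% of AngII+HS VSMCs. With every cell thinned to 1000 UMIs, which left out 7 and 1 cells, these shares were 43.4% (42.1 to 44.8) and 31.0% (27.8 to 34.3). The T and B cells, with medians of 3788 and 2142 UMIs, had thinned shares of 3.93% and 1.08%. So the lower level was also a lower share of cells with the transcript at equal depth.

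Outside the mural cells and the unnamed cluster described below, *Myocd* ranged from 22.7 CPM in lymphatic endothelial cells to 55.2 CPM in neutrophils in the Control library. In the AngII+HS library it ranged from 0 UMIs in lymphatic endothelial cells, which allows up to 4.77 CPM, to 12.1 CPM in neutrophils. The T and B cells stood at 37.4 and 9.29 CPM. Fibroblasts, at 35.5 and 9.75 CPM, held 0.95 times (0.67 to 1.38) and 1.05 times (0.77 to 1.46) the level of the T and B cells. Macrophages and VECs read lower than this in the AngII+HS library, at 4.17 (3.33 to 5.17) and 3.58 (2.27 to 5.37) CPM. The part of free RNA in the fibroblast log2 ratio of -1.87 was not tested. Per 1000 UMIs of the VSMC markers, *Myocd* had 20.9 UMIs in Control VSMCs and 10.5 in AngII+HS VSMCs. The same measure was 25.1 (22.6 to 27.9) in Control and 8.601 (7.61 to 9.68) in AngII+HS fibroblasts. Over the other named cell types outside the mural cells it ran from 23.9 in VECs to 55.6 in dendritic cells (5 *Myocd* UMIs) in the Control, and from 0 in LECs and 3.53 in VECs to 11.9 in T cells in the AngII+HS library.

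Pericytes, with 42 Control and 95 AngII+HS cells, held *Myocd* at 281 (224 to 349) and 114 (86.8 to 147) CPM. The log2 ratio there was -1.30 (-1.81 to -0.80), from 82 and 59 UMIs. A cluster of 368 Control and 246 AngII+HS cells that was led by *Fgf14* and *Kcnq5* and fitted no marker list had the highest level of any group. It stood at 984 (929 to 1041) CPM in the Control and 699 CPM in the AngII+HS library, a log2 ratio of -0.49 (-0.65 to -0.34). Its cells had a median of 2560.5 and 1739.5 UMIs and a median mitochondrial share of 9.32% and 5.41%, against 4.23% and 2.81% in VSMCs, and 72.6 and 130 *Myocd* UMIs per 1000 VSMC marker UMIs.

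The actin-regulated coactivators were low in VSMCs and highest elsewhere. *Mrtfa* (chr15:80896482-81074969, minus strand) had 23.8 CPM in Control and 26.9 CPM in AngII+HS VSMCs, a log2 ratio of 0.18 (-0.05 to 0.40). It stood at 355 and 546 CPM in dendritic cells and at 124 and 128 CPM in T cells. In macrophages it was 51.6 CPM in the Control and 83.7 CPM in the AngII+HS library (log2 ratio 0.70, 0.43 to 0.98). That ratio was 1.26 (0.97 to 1.57) in a macrophage cluster led by *C1qa* and -0.77 (-1.55 to 0.13, 14 Control UMIs) in one led by *Arg1*. *Mrtfb* (chr16:13073858-13235394, plus strand) had 29.6 and 31.2 CPM in VSMCs, a log2 ratio of 0.08 (-0.14 to 0.28). Vascular endothelial cells (VECs) carried it at 256 (241 to 272) and 247 (235 to 260) CPM, above every other cell type in each library. In VSMCs the interval of either gene held 0, but with pericytes added back both lay above 0, at 0.38 (0.17 to 0.58) for *Mrtfa* and 0.21 (0.01 to 0.40) for *Mrtfb*.

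*Srf* (chr17:46857767-46867119, minus strand) stood at 21.2 CPM in Control VSMCs (1150 UMIs) and at 20.02 CPM in AngII+HS VSMCs (136 UMIs). The log2 ratio was -0.08 (-0.35 to 0.18). These levels were 2.55 times (1.29 to 5.92) and 1.35 times (1.01 to 1.82) those of the T and B cells. VSMCs had the highest level of the Control library, though the interval of the next cell type, neural cells at 19.1 CPM, overlapped it. In VECs, *Srf* was 9.98 CPM in the Control and 17.9 CPM in the AngII+HS library (log2 ratio 0.84, 0.32 to 1.38, from 43 and 115 UMIs). Within either of the VEC clusters described below with *Klf4* the interval held 0, at 0.54 (-0.10 to 1.23) and 0.66 (-0.30 to 1.65). The AngII+HS level of VECs was 1.21 times that of T and B cells (0.89 to 1.64), which lies within counting error of it. Fibroblasts and neutrophils of that library read lower, at 0.61 times (0.47 to 0.80) and 0.42 times (0.28 to 0.63) the T and B cells. So T and B cells did not mark the lowest *Srf* level, and the part of free RNA in the *Srf* values was not tested.

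*Klf4* (chr4:55527139-55532528, minus strand) had 847 CPM in Control VSMCs (45955 UMIs) and 456 CPM in AngII+HS VSMCs (3096 UMIs), a log2 ratio of -0.89 (-0.95 to -0.84). It was present in 92.4% and 70.9% of the VSMCs, and in 48.2% and 30.2% after thinning, against 12.7% and 11.3% in thinned T and B cells. VSMCs held 62.2% of all *Klf4* UMIs in the Control library against 6.09% in AngII+HS, but levels per UMI were higher elsewhere. The highest were in lymphatic endothelial cells (LECs, 2128 and 1719 CPM), then in fibroblasts (1631 and 1179 CPM) and VECs (1410.0 and 795 CPM).

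*Klf4* was lower in the AngII+HS library in 7 of the named cell types with an interval clear of 0, from -0.29 in neural cells and -0.31 in LECs to -0.83 in VECs and -1.44 in macrophages. Dendritic cells went the other way, from 104 to 240 CPM (log2 ratio 1.21, 0.52 to 1.996). The Control value there rests on 17 UMIs. The clusters that made up the macrophages and VECs differed in size between the libraries. A macrophage cluster led by *Arg1* held 41 Control and 2070 AngII+HS cells, and there *Klf4* was 145 and 197 CPM, a log2 ratio of 0.44 (0.03 to 0.89). In the larger cluster led by *C1qa*, with 492 and 2430 cells, it was 793 and 305 CPM (log2 ratio -1.38, -1.47 to -1.29). Of the VEC clusters, 1 led by *Selp* (341 and 819 cells) had -0.97 (-1.05 to -0.90) and 1 led by *Cytl1* that also held *Gja5* and *Bmx* (496 and 412 cells) had -0.60 (-0.68 to -0.53). In T cells it stood at 153 and 169 CPM, a log2 ratio of 0.15 (-0.17 to 0.48).

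*Klf5* (chr14:99536086-99552473, plus strand) had 8.76 CPM in Control and 3.53 CPM in AngII+HS VSMCs, a log2 ratio of -1.31 (-1.97 to -0.72). The VSMC values were 0.94 times (0.49 to 2.06) and 0.99 times (0.52 to 1.94) those of the T and B cells, which stood at 9.35 and 3.56 CPM. Macrophages read lower, at 2.65 and 0.70 CPM, and AngII+HS B cells alone had 0 UMIs, which allows up to 1.69 CPM. So these reference cells did not share 1 level, and the part of free RNA in the VSMC values was not tested. Fibroblasts held 4.70 times (2.45 to 10.35) and 4.93 times (3.09 to 8.39) the level of the T and B cells. Their *Klf5* was 44.0 CPM in the Control and 17.5 CPM in the AngII+HS library (432 and 495 UMIs), a log2 ratio of -1.33 (-1.51 to -1.14).

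**Figure D2:**
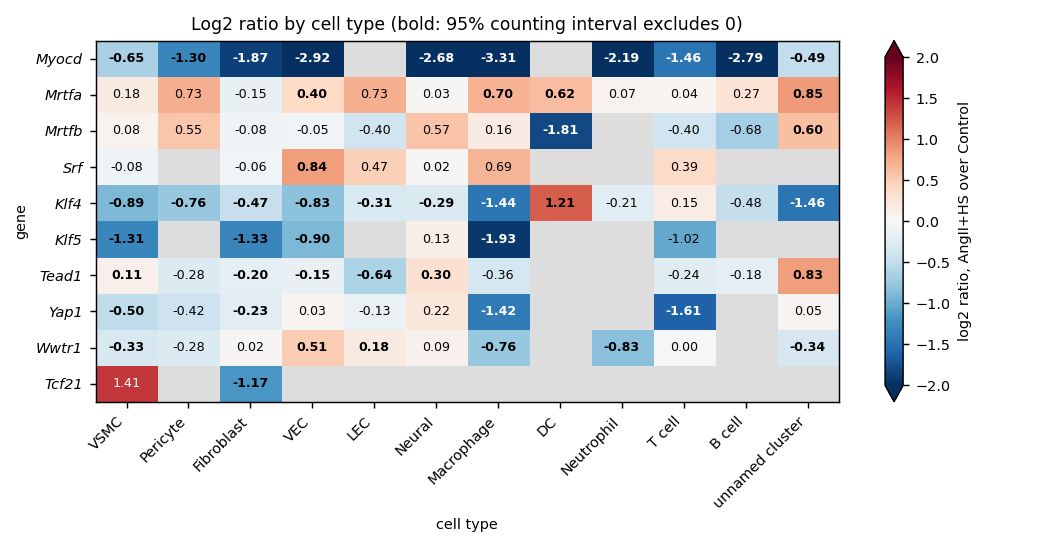
Log2 ratio of AngII+HS over Control for each gene (rows) in each cell type (columns), from UMIs summed per cell type and library. Bold values have a 95% counting interval that excludes 0, and grey fields have under 20 UMIs over both libraries or at most 3 in either. *Klf4* was -0.89 in VSMCs, -0.47 in fibroblasts and -0.83 in VECs, and *Wwtr1* was -0.33 in VSMCs and 0.51 in VECs.

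Among the Hippo effectors, *Yap1* (chr9:7932000-8004661, minus strand) had 172 CPM in Control VSMCs and 121 CPM in AngII+HS VSMCs, a log2 ratio of -0.50 (-0.61 to -0.40). In VECs it stood at 135 and 139 CPM, a log2 ratio of 0.03 (-0.12 to 0.19). Thinned to 1000 UMIs, the VSMC log2 ratio was -0.29 with an interval from -0.59 that reached 0, and the shares of VSMCs with a UMI were 14.2% (13.3 to 15.2) and 11.4% (9.32 to 13.8), with intervals that overlap. *Wwtr1* (chr3:57363067-57483331, minus strand) had 211 and 169 CPM in VSMCs, a log2 ratio of -0.33 (-0.42 to -0.24). In VECs it went from 423 CPM in the Control to 602 CPM in the AngII+HS library (log2 ratio 0.51, 0.43 to 0.59), and the thinned share of VECs with a UMI from 29.1% to 40.8%. The makeup of the VECs moved with this value. In the *Selp* cluster *Wwtr1* was 595 and 633 CPM (log2 ratio 0.09, -0.02 to 0.20), and in the *Cytl1* cluster 310.5 and 547 CPM (0.82, 0.69 to 0.95). LECs held 532 and 603 CPM, the highest values, a log2 ratio of 0.18 (0.01 to 0.35).

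*Tead1* (chr7:112278522-112506014, plus strand), the DNA-binding partner of YAP and TAZ, had 147 CPM in Control and 158 CPM in AngII+HS VSMCs, a log2 ratio of 0.11 (0.01 to 0.20). Its sign turned in the setting that kept doublets, which also clustered the cells anew and did not cluster mural cells a second time. The interval held 0 under 8 of 13 alternative settings that give one. Neural cells stood highest at 336 and 413 CPM. In LECs it was 267 and 172 CPM (log2 ratio -0.64, -0.94 to -0.34), and in fibroblasts 189 and 164 CPM (log2 ratio -0.20, -0.28 to -0.12). Within cell types its direction depended on the cluster, at -0.55 (-0.72 to -0.39) in the *Selp* and 0.29 (0.12 to 0.46) in the *Cytl1* cluster of VECs, and from -0.55 to 0.52 over the 3 larger fibroblast clusters. In macrophages, dendritic cells, T cells and B cells the 3 Hippo effectors reached at most 19.1 CPM. Neutrophils held *Wwtr1* at 69.9 and 39.3 CPM (19 and 244 UMIs).

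*Tcf21* (chr10:22692803-22696073, minus strand) was found almost only in fibroblasts. There it stood at 15.9 CPM in the Control (156 UMIs) and 7.05 CPM in the AngII+HS library (199 UMIs), a log2 ratio of -1.17 (-1.48 to -0.86). Fibroblast clusters differed in this. Cluster 1 (1432 and 1554 cells) held *Tcf21* at 14.7 and 14.6 CPM (log2 ratio -0.01, -0.47 to 0.46), cluster 5 (904 and 1621 cells) at 17.9 and 5.99 CPM (-1.58, -2.08 to -1.08), and cluster 7 (273 and 1361 cells) at 11.96 and 2.92 CPM (-2.04, -3.09 to -0.94). A UMI was present in 4.52% and 2.96% of fibroblasts, and in 1.53% (1.06 to 2.15) and 0.74% (0.52 to 1.04) after thinning, which left out 457 and 159 shallower cells. None of 232 Control or 2109 AngII+HS T and B cells held a UMI, with upper bounds of 1.58% and 0.17%. VSMCs had 21 UMIs in the Control (0.39 CPM) and 7 in the AngII+HS library (1.03 CPM), and the log2 ratio of 1.41 (-0.06 to 2.70) did not exceed counting error. The fibroblast markers were higher in AngII+HS VSMCs too, as given below, and their part in this value was not tested.

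**Figure D3:**
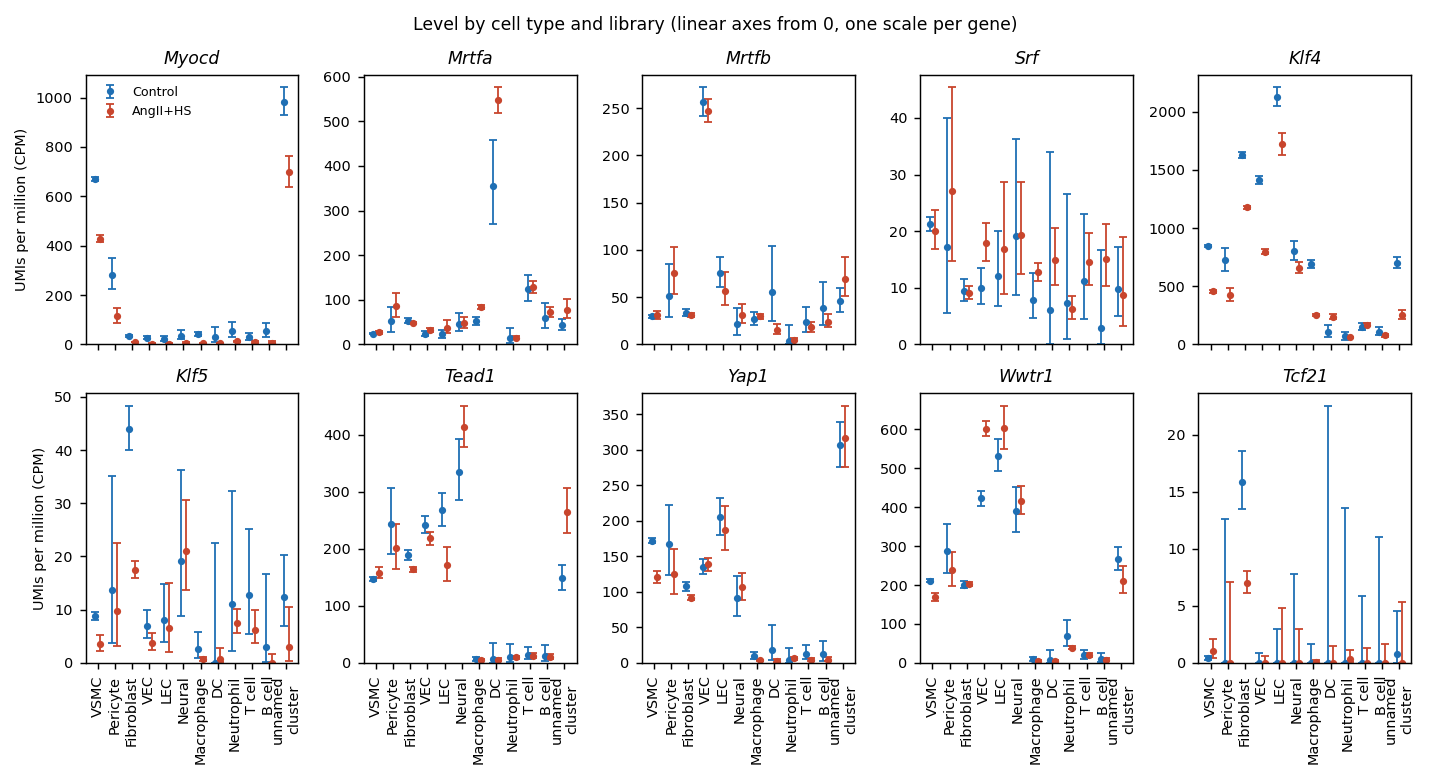
Level of each gene in CPM (linear axes from 0) by cell type and library, with 95% Poisson intervals. *Myocd* was highest in the unnamed cluster and VSMCs, *Mrtfa* in dendritic cells at 355 and 546 CPM, *Mrtfb* in VECs at 256 and 247 CPM, and *Tcf21* in fibroblasts at 15.9 and 7.05 CPM.

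Calls in the other cell types were read against all genes tested there. In fibroblasts, 3 of 10 members were lower (*Myocd*, *Klf5* and *Tcf21*) and 0 higher, beside 23.8% lower and 14.3% higher among all genes. In VECs, 3 of the 9 members with at least 20 UMIs were lower (*Myocd*, *Klf4* and *Klf5*) and 2 higher (*Srf* and *Wwtr1*), beside 16.4% and 20.5%. In LECs, 2 of 8 were lower (*Myocd* and *Tead1*) and 1 higher (*Mrtfa*), beside 14.3% and 24.1%. In macrophages, 5 of 9 were lower (*Myocd*, *Klf4*, *Klf5*, *Yap1* and *Wwtr1*) and 2 higher (*Mrtfa* and *Srf*), beside 32.4% and 23.5%. The counting intervals of *Mrtfa* in LECs (0.73, -0.07 to 1.53) and of *Srf* in macrophages (0.69, -0.003 to 1.46) held 0. *Myocd* in these 4 cell types lay between 0 and 41.4 CPM, a range that holds the 37.4 and 9.29 CPM of the T and B cells.

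The members also varied among VSMCs. Mural cells were clustered again without the members and without the genes of all lists, which gave 7 VSMC subclusters and 1 of pericytes (subcluster 5). *Myocd* was lower in the AngII+HS library in 6 of the 7 VSMC subclusters with an interval clear of 0. In subcluster 0, with 1609 and 226 cells, it was 705 CPM in the Control and 365 CPM in the AngII+HS library (log2 ratio -0.95, -1.06 to -0.85). In subcluster 3, with 951 and 174 cells, it was 577 and 555 CPM, a log2 ratio of -0.06 (-0.18 to 0.06). That subcluster held 30427 and 13352 CPM of immediate early genes, and its *Klf4* was 817 and 321 CPM (log2 ratio -1.35, -1.50 to -1.19).

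*Klf4* was lower with an interval clear of 0 in 5 of the 7 VSMC subclusters. In subcluster 4, with 154 and 129 cells, it was 956 and 1059 CPM, a log2 ratio of 0.15 (0.01 to 0.28), while *Myocd* there was 469 and 262 CPM (log2 ratio -0.84, -1.09 to -0.59). Thus neither gene differed alike in every subcluster, and the subclusters where they stayed closest between libraries were not the same. Depth differed too. The median UMIs per cell were 9713 in the Control and 4609.5 in the AngII+HS library in subcluster 3, and 8364.5 and 4461 in subcluster 4. In subcluster 0 they were 9635 and 9186, and the part of depth in these ratios was not tested. The makeup of the VSMCs differed between libraries as well. Subcluster 1 made up 24.7% of mural cells in the Control and 6.04% in the AngII+HS library, subcluster 4 held 2.92% and 14.2%, and subcluster 7 had 10 and 50 cells and so came mostly from the AngII+HS library. Without subcluster 7, the log2 ratio of *Klf4* in VSMCs was -0.83.

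**Figure D4:**
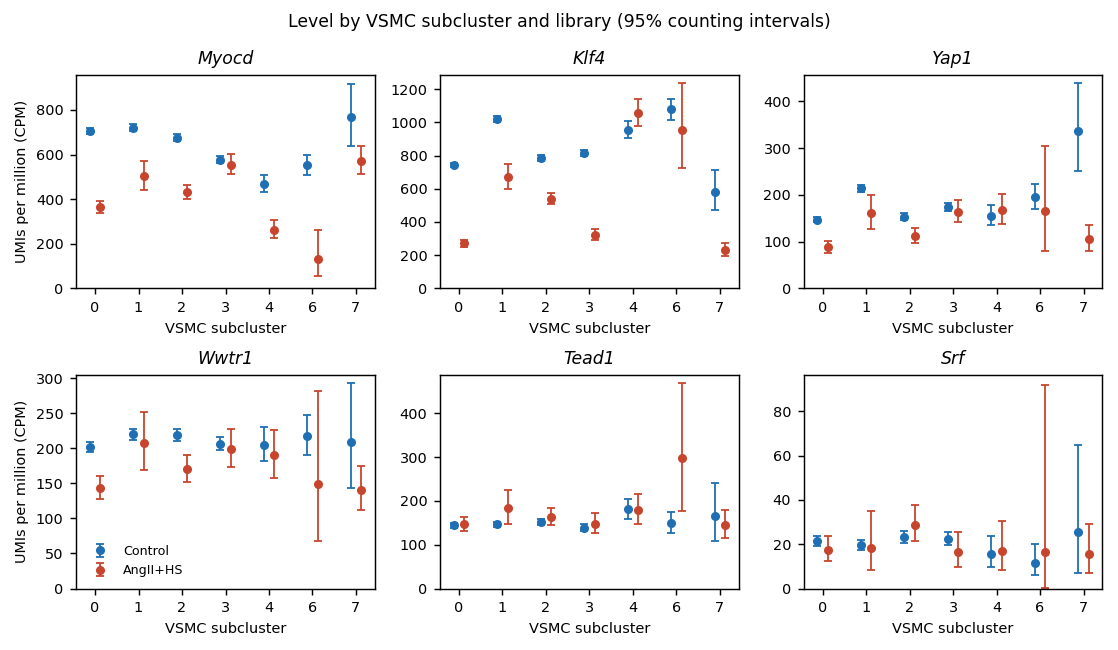
Level in CPM (linear axes from 0) of *Myocd*, *Klf4*, *Yap1*, *Wwtr1*, *Tead1* and *Srf* by VSMC subcluster and library, with 95% Poisson intervals. *Myocd* stood at 577 and 555 CPM in subcluster 3, and *Klf4* at 956 and 1059 CPM in subcluster 4, while in subcluster 0 both genes were lower in the AngII+HS library.

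VSMCs were also ranked within each library by the share of their UMIs that came from contractile genes and divided into tertiles of 1739 Control and 271 or 272 AngII+HS cells. From the low to the high tertile, *Klf4* was 1007, 885 and 650.4 CPM in the Control and 681, 488 and 296 CPM in the AngII+HS library. *Yap1* was 203, 171 and 141 CPM in the Control and 176, 119 and 91.4 CPM in the AngII+HS library. *Myocd* was 711, 688 and 614 CPM in the Control and 445, 491 and 360.3 CPM in the AngII+HS library. So *Klf4*, *Yap1* and *Myocd* were all lowest in the cells with the largest contractile share of each library. In the AngII+HS library *Myocd* was highest in the middle tertile. Contractile UMIs are part of the total, so a larger share lowers all other levels. With these UMIs left out of the total, *Klf4* still went from 1040.5 to 690.5 CPM in the Control and from 699.8 to 320.1 CPM in the AngII+HS library. *Myocd* went from 735 to 652 CPM in the Control and from 457 to 390 CPM in the AngII+HS library. The low tertile of the AngII+HS library had a median of 4649 UMIs per cell against 9715 in the high tertile, and the part of depth in this order was not tested.

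The targets of these regulators were read from lists of genes in VSMCs, with 0.5 UMIs added to each count. The counts for these and the following lists stand beside 20.7% lower and 16.8% higher among all 15720 genes tested in VSMCs. Of 21 contractile genes tested, 2 were higher (*Actg2* at 0.97 and *Tagln* at 0.56), 0 were lower, and the median log2 ratio was 0.21. *Tagln*, which encodes the actin-binding protein transgelin, had 9676 CPM in Control and 14279 CPM in AngII+HS VSMCs. The lowest were *Synpo2* (793 and 572 CPM, -0.47) and *Itga8* (1470.1 and 1168 CPM, -0.33). In VSMCs the list therefore did not share the direction of *Myocd*. Its median was -0.05, however, in the setting that kept doublets and did not cluster mural cells a second time. Of its genes, 10 served to name VSMCs. Pericytes differed: *Myocd* was lower there too (-1.30), and 15 of 20 contractile genes tested were lower and 1 higher, with a median of -0.75. Among all 5912 genes tested in pericytes, 1201 were lower and 1446 higher. The summed contractile level was 47027 CPM in the 42 Control pericytes, as high as the 45046.5 CPM of Control VSMCs. It was 28294 CPM in the 95 AngII+HS pericytes, and the part of cell makeup in this difference was not tested. In the other cell types read, the contractile median ran from -1.18 in macrophages to 0.22 in neutrophils, and the part of free RNA was not tested. In VSMCs, 2 of 15 cytoskeletal genes were higher (*Tpm4*, a tropomyosin, at 1.16 and *Fhl2* at 0.72), 0 were lower, and the median was 0.28.

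Immediate early genes, the other class of SRF targets, went the opposite way. Of 15 genes, 14 were lower and 0 higher, with a median log2 ratio of -0.99, and their summed level was 30299 CPM in Control and 14106 CPM in AngII+HS VSMCs. *Egr1*, a zinc finger factor, had 4752 and 1560.2 CPM (-1.61) and *Fosb*, an AP-1 subunit, 2934 and 1266 CPM (-1.21). *Egr2* and *Maff* differed least, at -0.48 and -0.50. The median of the same list was -0.80 in pericytes, -0.55 in macrophages, -0.47 in VECs, -0.08 in fibroblasts, 0.29 in T cells and 0.81 in neutrophils. These genes are also known to respond to tissue dissociation, and the part of dissociation in them or in *Klf4*, which belongs to the same kind of early-response genes, was not tested.

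Among 13 other KLF and SP factors, 5 were lower and 0 higher, with a median of -0.40. *Klf6* had 841 and 389 CPM (-1.11) and *Klf10* 84.1 and 40.9 CPM (-1.04), while *Klf3* (85.2 and 89.2 CPM, 0.07) and *Sp1* (51.1 and 48.9 CPM, -0.06) differed least. Of 18 partners and regulators of SRF or myocardin, 3 were lower and 3 higher, near the 20.7% and 16.8% among all genes tested, with a median of -0.10. *Csrp2*, a LIM protein of smooth muscle, had 2083 and 3732 CPM (0.84), and the ternary complex factor *Elk1* 11.6 and 17.1 CPM (0.56). The cardiovascular factor *Gata6* had 279 and 130 CPM (-1.10), and *Foxo1* 140 and 76.0 CPM (-0.89).

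Targets of YAP and TAZ were mixed, with 4 of 23 lower, 7 higher and a median of -0.02, beside 20.7% lower and 16.8% higher among all genes tested. *Ccn2*, which encodes connective tissue growth factor, had 1425 CPM in Control and 2581 CPM in AngII+HS VSMCs (0.86), and *Ankrd1* 19.6 and 58.9 CPM (1.59). The coagulation initiator *F3* had 38.7 and 11.2 CPM (-1.78), and *Gadd45a* 48.5 and 21.9 CPM (-1.14). Of 16 Hippo kinases, adaptors and TEAD cofactors, 1 was lower, the adaptor *Amot* (5.94 and 1.91 CPM, -1.58), and 0 were higher, with a median of -0.15. The kinase *Stk4* stood at 20.2 and 27.2 CPM (0.43), *Tead2* at 4.09 and 5.00 CPM (0.31), and the cofactor *Vgll4* at 51.5 and 36.5 CPM (-0.49).

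Genes known from modulated smooth muscle were higher in 14 of 16 cases, 0 were lower, and the median log2 ratio was 1.89. *Spp1*, which encodes osteopontin, had 29 UMIs (0.53 CPM) in Control and 1006 UMIs (148 CPM) in AngII+HS VSMCs, and the proteoglycan *Lum* 3.797 and 53.1 CPM (3.81). *Ibsp* (2.19 and 2.94 CPM, 0.45) and *Cytl1* (5.70 and 4.56 CPM, -0.30) were the remaining genes. The median of the same list was 1.55 in fibroblasts, 2.10 in macrophages, 1.98 in neutrophils, 1.74 in neural cells, 1.73 in T cells (12 of 14 higher), 1.44 in B cells (11 of 14 higher), 0.72 in pericytes, 0.65 in VECs and 0.13 in LECs. Markers of other cells moved with this list. All 9 fibroblast markers were higher in AngII+HS VSMCs, with a summed level of 1588 and 3733 CPM, against 133 and 744 CPM in T and B cells. The macrophage markers went from 16.1 to 123 CPM and the neutrophil markers from 6.73 to 219 CPM, below the 256 and 255 CPM of the AngII+HS T and B cells. *Lum* and *Dcn* are on both the modulated and the fibroblast list, and the part of free RNA or of remaining doublets in these values was not tested. Of 13 fibroblast lineage factors beside *Tcf21*, 2 were lower (*Tbx20* and *Gli1*) and 3 higher, with *Ebf2* at 2.49 and 19.4 CPM and *Meox2* at 1.29 and 7.51 CPM, and a median of -0.12.

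**Figure D5:**
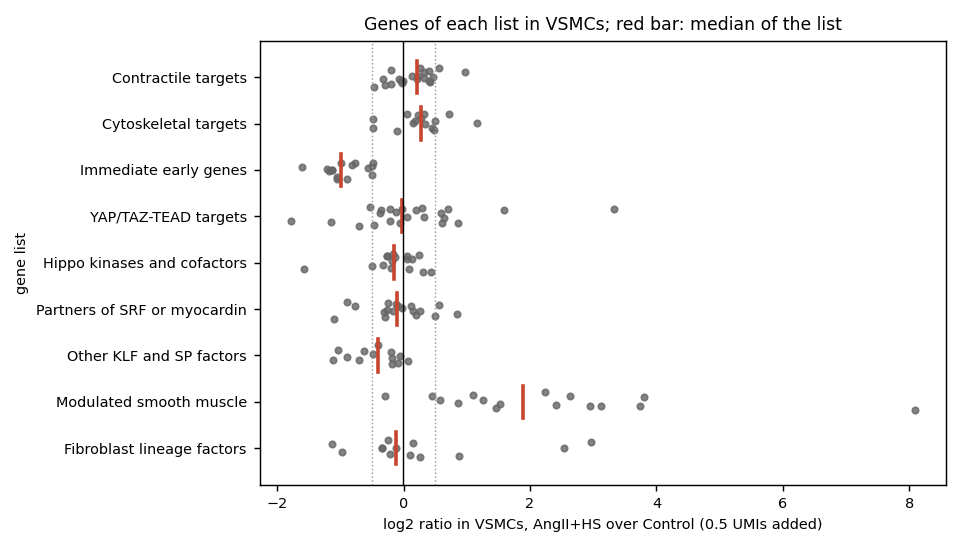
Log2 ratio of AngII+HS over Control in VSMCs for each gene of 9 lists (points, scattered in height for legibility), with the median of each list as a red bar, the median of all genes tested as a black line and the thresholds of 0.5 in either direction dotted. Immediate early genes lay below 0 with a median of -0.99, contractile targets around 0.21, and genes of modulated smooth muscle mostly above 0.5 with a median of 1.89.

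The genes whose levels were most like those of a regulator were found by Pearson correlation of log2(CPM + 1) over 21 points, each a cell type in a library, among 12313 genes. For *Myocd* these were *Myom1* and *Adcy5* (r = 0.93 each) and *Myh11* (0.92). For *Klf4* they were *Fosb*, *Smad1* and *Ube2e2* (0.95 each), for *Tcf21* *Sult1e1* (0.97), *Angptl7* (0.94) and *Folh1* (0.93), and for *Srf* *Ndufv2* (0.89), *Mrpl49* (0.83) and *Msantd4* (0.83). The points share 2 libraries and differ in depth, and the values are descriptions.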

How the data were processed

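Cell Ranger was used by the authors to count UMIs for each gene in each barcode, and the deposited files hold raw counts for 33696 genes, without normalization or doublet removal. The matrix headers name version 8.0.1. The genome build given is GRCm39 in the methods and mm10 in the labels, and these Cell Ranger versions also count intronic reads by default, so levels were not compared between genes. The deposited counts were filtered at 500 UMIs, 200 genes and under 20% mitochondrial UMIs, as in the study's methods, which left 11288 Control and 24560 AngII+HS cells. Doublets were scored with Scrublet (scanpy 1.11.5, in place of DoubletFinder), and 1019 and 4826 cells with the highest scores were dropped, a rate of 0.8% for every 1000 cells in a library. Seurat 5.3.0 anchors on 2000 variable genes without the members, 30 components and Louvain clustering at resolution 0.8 followed. Components and resolution are not given in the sources used here.

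Clusters were named after the marker list with the highest score (5 CPM added) if at least 3 markers were detected in 10% of cells and the 10 leading genes (detected in 25% of cells) did not favour another list. This rule was settled after clusters were seen. Compared against all cells, a fibroblast cluster had stayed unnamed, so leading genes were taken against cells of other lists. Mural cells were clustered again on 1952 integrated genes with 20 components at resolution 0.4. The members and lists were chosen with earlier results of these data known.

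UMIs of each gene were summed over the cells of a type within a library. The planned description has no test, since each condition is 1 library. A count of 0 allows up to 3 UMIs. Named list genes are the 2 highest and 2 lowest log2 ratios per list among genes with at least 50 UMIs, and the 3 genes most like *Myocd*, *Srf*, *Klf4* and *Tcf21* come from genes with at least 500 UMIs and groups of at least 50 cells. *Zfp36*, *Vcl*, *Myl9* and *Dcn* fall outside this rule and were chosen after their values or sequences were seen. The calculation of the ratios and intervals was run on simulated Poisson counts. These had no spread between cells or mice, so the run says nothing about such spread here. Alternatives were no or double doublet removal, stricter cell filters (1000 UMIs, 500 genes, 10% mitochondrial), no integration, resolutions 0.4 and 1.2, typing cell by cell, scaling without mitochondrial genes or by TMM (edgeR 4.0.16), equal weight per cell, thinning, subtraction of free RNA and pericytes added back. Leaving out VSMC subcluster 7 or a fibroblast cluster of mostly AngII+HS cells, and scaling without immediate early genes, were added after seeing the data, as were the values by cluster within cell types. Work used R 4.3.3, Python 3.11.15, numpy 2.4.6, scipy 1.17.1, pandas 2.3.3 and matplotlib 3.10.9. Coordinates of genes are those of GENCODE on GRCm39.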

Additional observations from a re-analysis of the deposited data

Results flagged for a closer look

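The log2 ratio of *Wwtr1* had opposite signs in endothelium and smooth muscle, at 0.51 in VECs and 0.18 in LECs against -0.33 in VSMCs. *Tead1* also had opposite signs, at -0.20 in fibroblasts, -0.15 in VECs and -0.64 in LECs against 0.11 in VSMCs. In each case the 95% counting intervals of both cell types exclude 0, but the *Tead1* interval in VSMCs held 0 under 8 of 13 alternatives, and within the VECs *Wwtr1* was 0.09 (-0.02 to 0.20) in the cluster led by *Selp* and 0.82 in the one led by *Cytl1*, and *Tead1* -0.55 and 0.29. With 1 library per condition the differences between cell types were not tested. The VSMC value of *Tead1* changes sign in the setting that keeps doublets and does not cluster mural cells a second time.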

How the results depend on the processing

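No paired analysis was possible because each condition is 1 library. The log2 ratio of *Myocd* in VSMCs kept its sign under all 15 alternatives, from -0.77 with cells typed one by one, -0.73 with no doublets removed and -0.72 with pericytes added back to -0.59 with double doublet removal, at resolution 0.4 and at resolution 1.2, and -0.58 without integration. *Klf4* kept its sign under all 14 alternatives, with -1.15 without integration, -1.12 at resolution 0.4, -1.11 at resolution 1.2, -0.995 with cells typed one by one, -0.83 without subcluster 7, -0.78 after thinning and -0.75 with equal weight per cell. *Tcf21* in fibroblasts stayed within its counting interval under all 14 alternatives (-1.31 to -0.89). The median of the contractile genes turned to -0.046 with no doublets removed, and was 0.26 with double doublet removal, 0.27 with cells typed one by one, 0.084 with equal weight per cell and 0.061 after thinning. *Tead1* in VSMCs turned to -0.021 with no doublets removed. With no doublets removed, without integration, at resolutions 0.4 and 1.2 and with cells typed one by one, mural cells were not clustered again. Those settings therefore changed more than their names say, and the cause of these changes was not tested. *Yap1* ranged from -0.68 to -0.28, *Wwtr1* from -0.43 to -0.29 and *Klf5* from -1.86 to -1.07 with no change of sign, whereas *Srf* (-0.25 to 0.27), *Mrtfb* (-0.03 to 0.58) and *Mrtfa* (-0.004 to 0.38) took both signs. Their intervals held 0 except for *Srf* (-0.25) and *Mrtfa* (0.33) with no doublets removed, *Mrtfa* (0.38) and *Mrtfb* (0.21) with pericytes added back, and *Mrtfb* (0.58) after thinning. *Yap1* stayed beyond the 0.5 threshold under 8 of 15 alternatives. *Tcf21* in VSMCs ranged from 0.31 with cells typed one by one to 1.54. Keeping doublets left 5668 and 895 VSMCs, and typing cells one by one 4160 and 658.

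Depth limits *Srf*, *Klf5* and *Tcf21* most, with 136, 24 and 7 UMIs in AngII+HS VSMCs. Intervals cover counting error only and not the spread between mice, and fewer transcripts per cell and a different makeup of the VSMCs cannot be told apart from a treatment effect with 1 library per condition.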
